A study of Mus musculus with 10 samples.

Results

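The nuclear genes that encode subunits of oxidative phosphorylation complexes I to V were read in mouse aortic tissue with and without a forming abdominal aortic aneurysm (AAA). Members were the gene names on the array that fit the pattern of subunit symbols (Ndufa, Ndufb, Ndufc, Ndufs and Ndufv for complex I, Sdha to Sdhd for complex II, Uqcr and Cyc1 for complex III, Cox4 to Cox8 for complex IV and Atp5 for complex V). The pattern matched 84 of 35527 names. Of these, 82 are counted as subunits by their names and 2 are not. Cox4nb is an old name of a membrane insertion factor of the endoplasmic reticulum, and Cox7a2l assists the joining of complexes into larger assemblies. A name was tested if at least 5 of 10 arrays gave a probe an aortic signal well above background, which left 22520 names in all and 80 of the 82 subunits. The others, Cox7b2 and Cox8c, were above background on 0 arrays. Ndufa4, an old complex I name, is counted with complex IV.

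Tissue came from 10-week-old male C57BL/6J mice on a normal diet, 7 days after surgery. In the PPE group, porcine pancreatic elastase (type I, 1.5 U/mL) was infused into the infrarenal aorta for 5 min at 100 mmHg, which digests elastin and starts an AAA. Sham mice had the same surgery with saline. There were 5 mice per group, none pooled, so an array stands for 1 aorta. The infrarenal segment was freed of fat and surrounding connective tissue under a microscope, per the study's methods, and its whole RNA was used, so each value is over all cell types left in the specimen. On every array the red dye marked aortic RNA (500 ng) and the green dye a universal mouse reference RNA. Unless a single channel is named, every level given is the log2 of red over green signal, and every change is PPE minus sham of that log2 ratio. Where a channel is named, levels and changes are of the log2 signal of that channel.

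Oxidative phosphorylation takes place in the inner mitochondrial membrane. Complexes I and II take electrons from NADH and succinate, complex III passes them to cytochrome c, complex IV gives them to oxygen, and complex V uses the proton gradient that complexes I, III and IV build to make ATP. Most subunits are encoded in the nucleus and a few, all of them membrane parts of the proton pumps and of complex V, in mitochondrial DNA. Contractile smooth muscle, heart, skeletal muscle and brown fat differ in how many mitochondria they hold, and some subunits of complex IV have isoforms that heart, skeletal muscle and brown fat use in place of the common ones.

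Red signal was well above background on 37.6% (sham 5) to 65.8% (PPE 1) of spots. No spot was saturated, and precision is limited by there being 5 arrays a group. The 10 arrays lay on 5 slides, of which slide 1 (sham 1, PPE 1, PPE 2) and slide 2 (sham 2, sham 3, PPE 3, PPE 4) held both groups. Smooth muscle genes, which define the aortic wall, lay above the reference in both groups.

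Of the 80 subunits tested, 71 were lower in PPE than in sham and 0 were higher (limma adjusted p under 0.01). Of all names tested, 9.96% were lower and 13.9% were higher. The median subunit changed by -1.16, which is 44.6% of the sham level, against a median of 0.02 over all names. In 56 of the 71 called subunits the decrease passed 2-fold, and 5.23% of all names were called with such a decrease. In 72 of the 80 subunits all PPE values lay below all sham values, as in 10.5% of all names. The median over the 80 subunits was 1.10, 0.85, 1.03, 1.17 and 0.66 on sham 1 to 5 and -0.17, -0.09, -0.20, -0.09 and -0.15 on PPE 1 to 5. The PPE arrays lay close together, and the lowest sham array was sham 5, which was the lowest of its group in 41 of the 80 subunits. Of the names that are no subunits, Cox4nb was lower by -0.62 (SE 0.12, adjusted p 0.0016) and Cox7a2l read 0.07 (SE 0.10, adjusted p 0.66). Within slide 1, where sham 1 was the only sham array, 79 of the 80 subunits were lower in PPE, and within slide 2, 78. The share of all names lower within a slide was not computed.

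The counts rested on the scaling of the arrays. When each array was centred on its median in place of an intensity-dependent curve (loess), the median of all names rose to 0.41, only 1 subunit was called (Cox7a1) and the median subunit lay at -0.32, which is -0.72 relative to all names. Of the 80 subunits, 75 stayed below the median of all names under that centring, and those above it were Atp5c1 (0.58), Atp5g1 (0.63), Atp5g2 (0.67), Ndufa3 (0.47) and Cox6b2 (0.49), all of them not called under loess. In bulk tissue, fewer cells of a type and less RNA per cell cannot be told apart. Markers of some cell types also changed under loess, beside 9.96% of all names lower and 13.9% higher. In PPE, 7 of 9 smooth muscle and 9 of 9 brown fat genes were lower, and 7 of 8 macrophage genes were higher. Genes of fat cells in general were lower in 2 of 8 and those of skeletal muscle in 1 of 9. Heart muscle had 1 of 6 lower and 1 higher, endothelium 0 of 6 called and fibroblasts 2 of 5 higher. The part of these cell types in the change of the subunits was not tested.

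**Figure D1:**
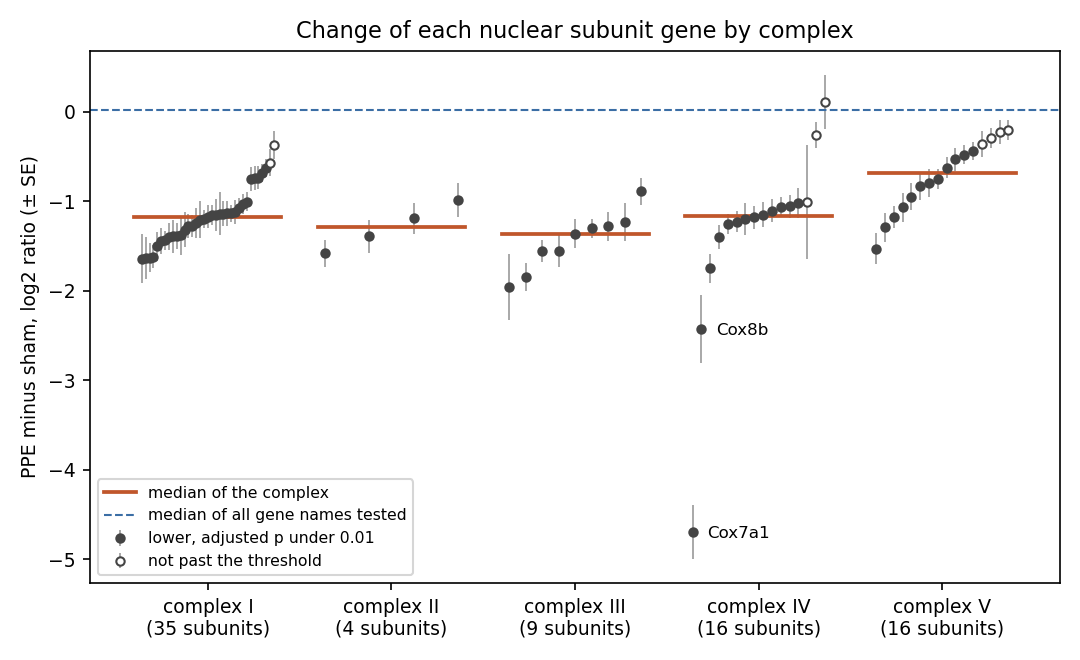
Change of each of the 80 tested subunit genes, PPE minus sham on the log2 scale, in order of size within each complex; bars are standard errors of the limma fit, filled points passed an adjusted p of 0.01, and lines mark the median of a complex and of all names. The medians of complexes I to IV lie between -1.16 and -1.36 and that of complex V at -0.69, which turns to 0.12 under median centring, where all names lie at 0.41.

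Complex I oxidises NADH. It has a peripheral arm, with the sites that bind NADH and quinone, and a membrane arm that pumps protons. In PPE, 33 of its 35 nuclear subunits tested were lower, with a median of -1.17 and a range from -1.64 to -0.37. By arm, 7 of 8 subunits of the NADH-binding arm were lower (median -1.18), 8 of 8 of the quinone-binding arm (-1.21) and 18 of 19 of the membrane arm (-1.17). Most subunits lay in a narrow band, with 24 of 35 between -1.5 and -1.

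Ndufa10 and Ndufb8, both supernumerary subunits of the membrane arm, had the largest decreases of complex I, of -1.64 (SE 0.27, limma adjusted p 0.000618) and -1.63 (SE 0.23, adjusted p 0.000241). Ndufa10 read 1.20, 0.46, 1.03, 1.08 and -0.14 on sham 1 to 5 and -0.54, -0.79, -1.22, -0.59 and -1.42 on PPE 1 to 5. Sham 5 and PPE 5 were the lowest of their groups, and the groups did not overlap. Ndufv1, the subunit that binds NADH and its flavin, read 1.45, 1.15, 1.15, 1.52 and 0.63 in sham and -0.59, -0.52, -0.44, -0.28 and -0.42 in PPE, a change of -1.63 (SE 0.16, adjusted p 1.69e-05). Its probe lies on chromosome 19 at chr19:4007508-4007567 (mm9, minus strand). Iron-sulfur subunits that carry electrons on their way to quinone were also lower, with -1.38 for Ndufs1, -1.39 for Ndufs7 and -1.13 for Ndufs8.

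The complex I subunits that did not pass the threshold were Ndufs4 and Ndufa3. Ndufs4, which joins late in assembly and whose loss is a known cause of complex I deficiency, read 0.61, 0.10, 0.95, 0.59 and 0.36 in sham and 0.15, -0.03, -0.13, -0.01 and -0.20 in PPE. Its change was -0.57 (SE 0.15, adjusted p 0.0125), the groups overlapped at sham 2 and PPE 1, and without sham 2 it was -0.67 (adjusted p 0.00429). Ndufa3 changed by -0.37 (SE 0.15, adjusted p 0.0879), and its other probe, which is dim, by 0.03. Ndufa9, at -1.14 (SE 0.24, adjusted p 0.00305), was lower with all arrays and missed the threshold without sham 4 (-1.06, adjusted p 0.0103).

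Complex II, succinate dehydrogenase, is the only complex with no subunit from mitochondrial DNA, and it also works in the citric acid cycle. All 4 subunits were lower in PPE, with a median of -1.29. Sdhb, the iron-sulfur subunit, read 2.15, 1.83, 1.89, 2.14 and 1.73 in sham and 0.66, 0.52, 0.12, 0.56 and 0.01 in PPE, a change of -1.58 (SE 0.15, adjusted p 1.39e-05). The groups were far apart beside their spread. Sdha, which carries the succinate site, changed by -1.39 (SE 0.18, adjusted p 0.000129), with sham values of 2.04, 1.75, 1.81, 1.81 and 0.94 and PPE values of 0.41, 0.36, 0.22, 0.30 and 0.13. Sham 5 stood below the other sham arrays and still above all PPE arrays. The membrane anchors changed by -1.19 (Sdhd, SE 0.17) and by -0.98 (Sdhc, SE 0.19), the smallest change of this complex.

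Complex III, the cytochrome bc1 complex, had a median change of -1.36, and 9 of its 9 subunits were lower. Its catalytic nuclear subunits changed most. Cyc1, cytochrome c1, read 1.66, 0.39, 1.14, 1.06 and -0.28 in sham and -0.67, -0.94, -1.39, -0.71 and -2.09 in PPE, a change of -1.95 (SE 0.37, adjusted p 0.00155). Its spread was wide in both groups, and the groups did not overlap. Uqcrfs1, the Rieske iron-sulfur protein, read 1.63, 1.31, 1.19, 1.59 and 0.99 in sham and -0.57, -0.36, -0.79, -0.62 and -0.18 in PPE, with a smaller error for a like change of -1.85 (SE 0.16, adjusted p 5.87e-06). The core proteins Uqcrc2 and Uqcrc1, which hold the complex together, changed by -1.55 and -1.23, and the small subunit Uqcr11 by -1.56 (SE 0.13). Uqcrh, the hinge protein beside cytochrome c1, had the smallest change of complex III (-0.89, SE 0.15, adjusted p 0.000659), and under median centring it read 0.06, below the 0.41 of all names.

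Complex V, ATP synthase, had a smaller median of -0.69, with 12 of 16 subunits lower. Its subunits ran from -1.53 to -0.20, a range that overlaps that of complex I (-1.64 to -0.37). Differences between complexes were not tested. The median of complex V turned to 0.12 under median centring, which is -0.28 relative to all names. Only 4 of 16 subunits fell by more than 2-fold, and 6 changed by less than 0.5. The F1 head, which makes ATP, held both the largest and some of the smallest changes. Atp5b, the catalytic beta subunit, read 1.53, 1.23, 1.40, 1.06 and 0.79 in sham and -0.52, -0.51, -0.19, 0.14 and -0.54 in PPE, a change of -1.53 (SE 0.18, adjusted p 5.04e-05). Atp5a1, the alpha subunit that alternates with beta in the head, changed by -1.29 (SE 0.16, adjusted p 8.67e-05). Atp5c1, the gamma subunit that turns inside the head, read -0.09, -0.17, -0.09, -0.37 and -0.16 in sham and -0.12, -0.56, -0.45, -0.17 and -0.71 in PPE, and the groups overlapped (-0.23, SE 0.13, adjusted p 0.217). A dimmer probe of Atp5c1 changed by -0.80, the largest gap between 2 probes of a member, so the change of Atp5c1 depends on the probe.

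Other subunits of complex V lay between these. The subunits of the peripheral stalk, which keeps the head from turning, were lower in 4 of 4 (median -0.61), from -0.95 for Atp5o to -0.43 for Atp5j. In the red channel alone Atp5h kept its call (-0.76, limma adjusted p 0.000241). There Atp5o (-0.68, adjusted p 0.0521), Atp5f1 (-0.49, adjusted p 0.0114) and Atp5j (-0.41, adjusted p 0.0212) missed the threshold. Atp5j, Atp5e and Atp5f1 were close to the threshold. Atp5j (-0.43, adjusted p 0.00566) missed it when any 1 sham array, PPE 3 or PPE 4 was left out (adjusted p up to 0.0183). Atp5e, the epsilon subunit of the rotor (-0.53, adjusted p 0.00684), missed it without any 1 array other than sham 2 and PPE 5 (up to 0.0206). Atp5f1, the b subunit of the stalk (-0.48, adjusted p 0.00356), missed it without sham 1, sham 3, sham 4 or PPE 3 (up to 0.0121). Of the accessory subunits, which shape the dimer in the folded membrane, Atp5k changed by -1.17 (SE 0.12) and Atp5j2 by -1.07 (SE 0.16). Atp5s, now named Dmac2l, is counted with complex V by its old name. Atp5s changed by -0.36 (SE 0.14, adjusted p 0.0777) and was above background on 4 of 5 arrays in each group.

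The c subunits form the ring that protons turn. Atp5g1, Atp5g2 and Atp5g3 encode the same mature protein behind different targeting peptides, and only Atp5g3 passed the threshold. Atp5g3 read 0.53, 0.32, 0.32, 0.13 and 0.66 in sham and -0.26, -0.13, -0.26, -0.13 and -0.39 in PPE, a change of -0.62 (SE 0.12, adjusted p 0.00155), though in the red channel alone it was -0.30 (adjusted p 0.564) and under median centring 0.24, against 0.41 for all names. Atp5g2 read 0.21, 0.27, 0.25, 0.21 and 0.10 in sham and -0.01, -0.11, -0.01, 0.10 and -0.42 in PPE, a change of -0.30 (SE 0.11, adjusted p 0.0602) with groups that touched and did not cross. Atp5g1 changed by -0.20 (SE 0.11, adjusted p 0.195) and its groups overlapped. Under median centring Atp5g1 read 0.63 and Atp5g2 0.67, turned in sign and above all names. Differences between these 3 changes were not tested.

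**Figure D2:**
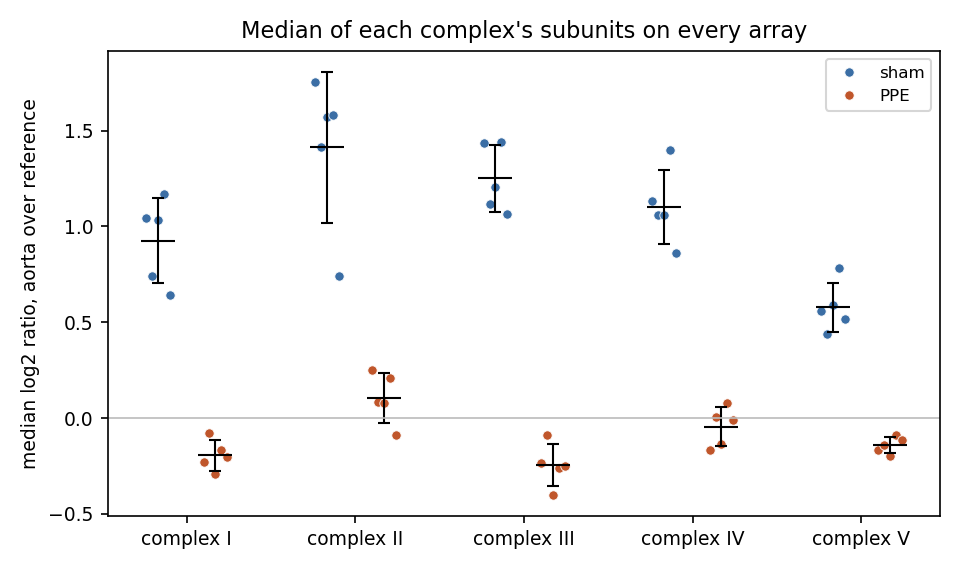
Median log2 ratio of aorta over reference of the tested subunits of each complex on every array, with the mean and standard deviation of each group of 5. All PPE arrays lie below all sham arrays in each complex under loess, and the step is smallest in complex V, whose median change turns to 0.12 under median centring; heights of different complexes are not comparable, since each is a ratio to the reference.

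Complex IV, cytochrome c oxidase, is where tissue isoforms replace common subunits. The 10 common subunits tested were all lower, with a median of -1.16 and a range from -1.75 for Cox6a1 to -1.01 for Cox5a. With the other nuclear subunits, 13 of 16 tested were lower. The isoforms of restricted tissues spread from -4.69 for Cox7a1 to 0.11 for Cox6b2, far wider than the common subunits. To ask whether a restricted isoform changed more than its common counterpart, the difference between the log2 ratios of the pair was taken on each array and compared between the groups by a two-sided exact permutation test, adjusted over the 5 pairs by Benjamini-Hochberg and called under 0.05. The smallest p that 5 against 5 arrays allow is 0.00794.

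Cox7a1, the isoform of subunit 7a in heart, skeletal muscle and brown fat, had the second largest decrease of the 22520 names. It read 4.55, 4.06, 4.26, 4.96 and 4.02 on sham 1 to 5 and -1.16, 0.32, -0.80, 0.37 and -0.33 on PPE 1 to 5. These groups were more than 3 log2 units apart at their nearest arrays, and the change was -4.69 (SE 0.30, adjusted p 1.12e-06), or 3.87% of the sham level. Its common counterpart Cox7a2 read 0.31, 0.48, 0.37, 0.56 and 0.77 in sham and -0.70, -0.47, -0.66, -0.59 and -0.39 in PPE. Cox7a2 too was lower, by -1.06 (SE 0.12, adjusted p 3.37e-05). The pair therefore differed by -3.63 (SE 0.34, exact p 0.00794, adjusted 0.0198), and the difference was -4.08 within slide 1 and -3.33 within slide 2. The probe of Cox7a1 lies within chr7:30970337-30970948 and that of Cox7a2 at chr9:79603215-79603274 (mm9, plus and minus strand).

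Cox8b, the heart, skeletal muscle and brown fat isoform of subunit 8, read 7.07, 6.32, 5.67, 6.91 and 6.38 in sham and 3.79, 5.30, 3.22, 4.32 and 3.58 in PPE. The highest PPE array, PPE 2, came near the lowest sham array, sham 3, without crossing it, and the change was -2.43 (SE 0.38, adjusted p 0.000408). The call of Cox8b was lost in the deposited LogRatio and series matrix (-1.35 in each, adjusted p 0.0102 and 0.0101) and under median centring (-1.31, adjusted p 0.348). The common Cox8a changed by -1.23 (SE 0.12, adjusted p 1.56e-05), and the pair differed by -1.20 (SE 0.39, exact p 0.0159, adjusted 0.0198). That call was lost without sham 1 or without any 1 PPE array other than PPE 2 (adjusted 0.0595 each, differences from -1.24 to -1.03). The size of this difference rests on the channel that is read. In the red channel, which holds the aortic RNA, the log2 signal of Cox8b was 15.65, 15.24, 15.40, 15.95 and 14.98 in sham and 8.85, 10.95, 9.28, 11.18 and 10.05 in PPE, a change of -5.38. In the green channel, which holds the same reference RNA on every array, it was 10.02, 10.20, 10.99, 10.63 and 10.10 in sham and 6.67, 7.00, 6.88, 8.14 and 6.85 in PPE, a change of -3.28.

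The reference signal of Cox8b thus moved with the aortic signal, and the ratio takes that movement off. In the red channel alone the pair of Cox8b and Cox8a differed by -4.38, close to the -4.30 of Cox7a1 and Cox7a2, and in the deposited log ratio by -0.003. Cox7a1 also moved in the green channel, by -0.69, against a change of -5.18 in the red. These were the only subunits of the 80 whose green signal moved by over 0.5 or passed the threshold there, where 139 of 22520 names did. The median absolute green change of the subunits was 0.05. The cause was not tested.

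**Figure D3:**
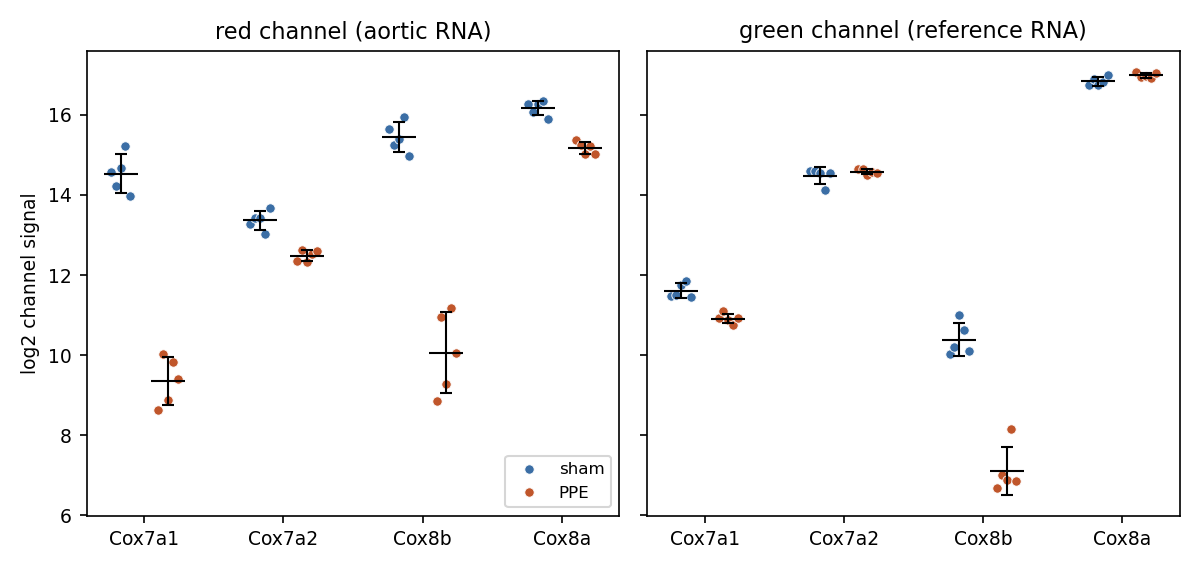
Log2 signal of the red channel (aortic RNA) and of the green channel (reference RNA) for both isoforms of subunits 7a and 8 on each array, with mean and standard deviation of 5 arrays per group. Cox8b fell by 5.38 in red and fell by 3.28 in green, while the green signals of Cox7a2 and Cox8a move by 0.10 and 0.16.

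Cox6a2, the heart and skeletal muscle isoform of subunit 6a, did not pass the threshold. It read -0.33, -2.52, -0.13, 1.83 and -0.32 in sham and -1.58, -0.61, -1.95, -0.56 and -1.81 in PPE. Sham 2 was the lowest and sham 4 the highest of all 10 arrays, so the change of -1.01 (SE 0.64, adjusted p 0.256) was within the spread. Its common counterpart Cox6a1 was lower by -1.75 (SE 0.16, adjusted p 1.1e-05), and the pair differed by 0.74 (SE 0.70, exact p 0.365, adjusted 0.365). The skeletal muscle markers also varied among arrays of 1 group, with a mean log2 ratio over the 9 genes tested of 1.33 on sham 2 and 4.63 on sham 4, the lowest and highest sham arrays, and from 0.82 to 3.86 in PPE. Beside 9.96% of all names, 1 of these 9 was lower in PPE (Myh2, a myosin of oxidative fast fibres, -3.84, adjusted p 0.000309). Higher were 0 of the 9, beside 13.9% of all names, and Mylpf was not tested. The part of the skeletal muscle markers in the spread of Cox6a2 was not tested.

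The other restricted isoforms did not pass the threshold either. Cox4i2, an isoform of subunit 4 known from lung, read -0.10, -0.04, -0.13, 0.49 and 0.37 in sham and -0.30, 0.01, -0.08, -0.32 and -0.02 in PPE (-0.26, SE 0.15, adjusted p 0.208). The common Cox4i1 was lower by -1.20 (SE 0.18, adjusted p 0.000313), so the pair differed by 0.94 (SE 0.28, exact p 0.0159, adjusted 0.0198), a call that was lost without sham 1, PPE 3 or PPE 5 (adjusted 0.0529 each). Cox6b2, the testis isoform of subunit 6b, read 1.73, 1.38, 1.03, 1.97 and 0.95 in sham and 2.12, 2.20, 1.10, 1.47 and 0.74 in PPE. Its groups overlapped widely (0.11, SE 0.30, adjusted p 0.812), while Cox6b1 was lower by -1.18 (SE 0.13, adjusted p 3.56e-05). That pair differed by 1.29 (SE 0.26, exact p 0.00794, adjusted 0.0198).

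**Figure D4:**
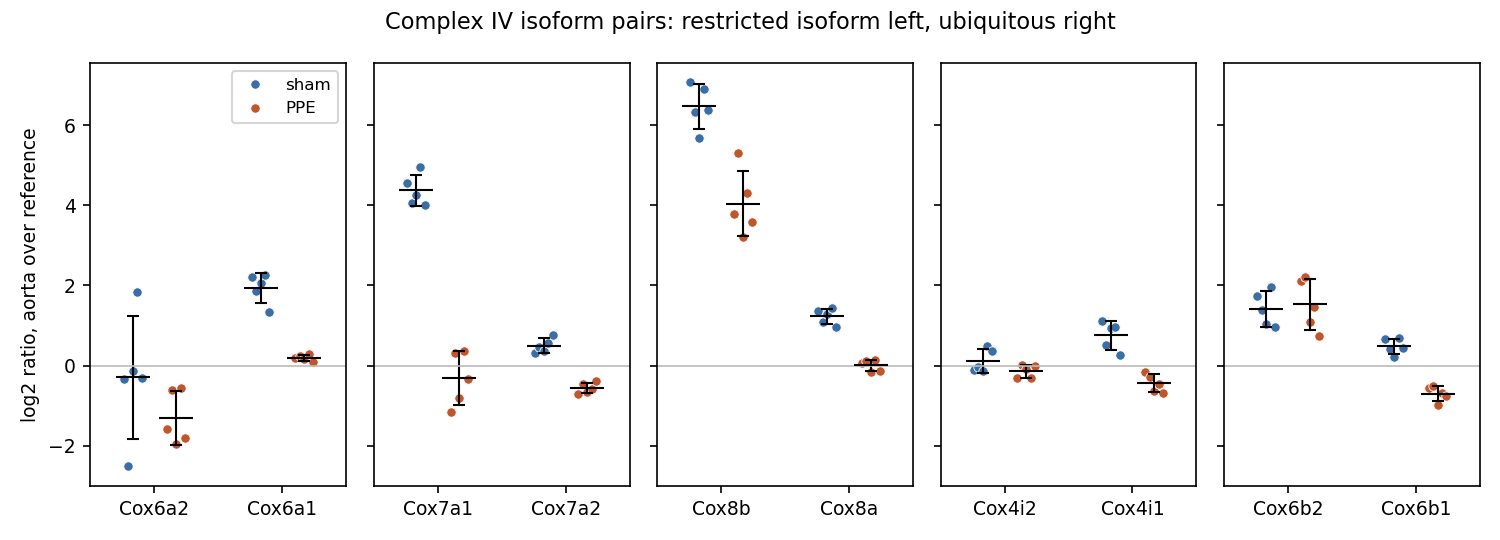
Log2 ratio of aorta over reference on each array for 5 pairs of complex IV isoforms, restricted isoform on the left of each panel, with mean and standard deviation of 5 arrays per group. Cox7a1 falls from a sham mean of 4.37 to -0.32 in PPE, Cox6a2 spreads over both groups, and the groups overlap in Cox4i2 and Cox6b2 but not in Cox4i1 and Cox6b1.

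Promoter sequence is shown for both kinds of subunit gene, since nuclear subunit genes are known to be bound by nuclear respiratory factor 1 (NRF1), ETS factors such as GABPA, oestrogen-related receptors (ERR), YY1 and CREB. All 82 subunits matched a RefSeq gene and 67 had a promoter window (GRCm38.p6, 250 bases before to 50 after the start, 72 windows). The stretches below are the 200 bases before the start, 5′ to 3′ on the strand of the gene, with motif letters in capitals:
Cox7a1, chr7:30183971-30184170, plus strand: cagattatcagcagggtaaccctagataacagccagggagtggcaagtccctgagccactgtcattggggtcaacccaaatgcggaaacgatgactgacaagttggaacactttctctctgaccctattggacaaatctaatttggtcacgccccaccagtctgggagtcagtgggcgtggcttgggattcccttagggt
Cox7a2, chr9:79759854-79760053, minus strand: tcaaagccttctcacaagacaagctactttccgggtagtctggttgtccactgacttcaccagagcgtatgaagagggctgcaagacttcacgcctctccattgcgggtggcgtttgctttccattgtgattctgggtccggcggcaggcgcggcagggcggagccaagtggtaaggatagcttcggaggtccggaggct
Cox8b, chr7:140900447-140900646, minus strand: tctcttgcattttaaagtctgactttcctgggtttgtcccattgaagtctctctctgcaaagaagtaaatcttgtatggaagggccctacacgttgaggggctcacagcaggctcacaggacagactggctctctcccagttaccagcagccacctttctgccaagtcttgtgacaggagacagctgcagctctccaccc
Cox6a1, chr5:115348959-115349158, minus strand: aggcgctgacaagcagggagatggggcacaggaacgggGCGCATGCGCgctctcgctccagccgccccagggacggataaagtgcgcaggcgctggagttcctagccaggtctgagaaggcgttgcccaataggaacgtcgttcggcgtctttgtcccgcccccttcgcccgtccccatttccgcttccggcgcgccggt
Atp5g2, chr15:102671048-102671247, minus strand: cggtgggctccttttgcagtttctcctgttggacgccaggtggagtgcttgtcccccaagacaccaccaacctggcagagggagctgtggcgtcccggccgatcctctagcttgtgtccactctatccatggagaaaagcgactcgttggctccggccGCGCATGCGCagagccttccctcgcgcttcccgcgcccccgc
Atp5g3, chr2:73911327-73911526, minus strand: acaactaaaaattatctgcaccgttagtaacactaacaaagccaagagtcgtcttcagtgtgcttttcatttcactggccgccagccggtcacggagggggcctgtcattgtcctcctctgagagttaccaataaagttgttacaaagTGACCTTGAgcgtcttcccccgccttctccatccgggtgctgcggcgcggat
Uqcrfs1, chr13:30545317-30545516, minus strand: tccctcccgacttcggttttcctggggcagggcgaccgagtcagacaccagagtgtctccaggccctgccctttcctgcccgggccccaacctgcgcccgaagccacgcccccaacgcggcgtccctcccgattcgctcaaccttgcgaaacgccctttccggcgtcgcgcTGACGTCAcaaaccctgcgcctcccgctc

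The letters searched, on both strands, were GCATGCGC for NRF1, CCGGAAGT for ETS, TCAAGGTCA for ERR, AAGATGGCG for YY1 and TGACGTCA for CREB. In Cox6a1 and Atp5g2 the NRF1 letters match on both strands at overlapping positions. Over the full windows, the NRF1 letters stood in 13.9% of subunit windows and in 2.71% of all 32851 windows, and the YY1 letters in 9.72% and 1.40%. The shares were 6.94% and 3.89% for ETS, 5.56% and 1.79% for CREB, and 2.78% and 0.423% for ERR. Subunit windows were richer in G and C, with a median of 57.5% against 52.7%, and the part of this in the shares was not tested.

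The stretches of Cox7a1 and Cox8b, the restricted isoforms that fell most, held none of these letters, nor did that of Cox7a2. Cox8b had the fewest CG pairs of all 72 subunit stretches (1), and Cox7a1 had 4, against 12 in Cox7a2, 23 in Cox6a1 and a median of 12 over the subunits and 5 over all genes. Of other subunits, Atp5l and Uqcr10 had 3 each and Ndufc2 had 4, so a low count was not particular to the restricted isoforms. A match of letters describes the sequence and is not a binding site, and no match says only that these letters are not in the stretch.

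Genes that work with the subunits were read from lists. Their counts stand beside 9.96% of all names lower and 13.9% higher. Under median centring only 8 of the 22520 names were called lower, Cox7a1 among them. Most calls of lower genes in these lists and among the markers below were thus not kept under that centring. Of the subunits that mitochondrial DNA encodes, 5 of 6 tested were lower, with a median of -1.90. COX1, the catalytic subunit of complex IV, read 2.17, 2.25, 2.50, 2.57 and 1.97 in sham and 0.04, 0.78, 0.34, 0.59 and 0.73 in PPE, a change of -1.79 (SE 0.17, adjusted p 1.13e-05). For complex I, ND3 changed by -2.23, ND4L by -2.06, ND1 by -1.91 and ND5 by -1.88. The groups of ND3 overlapped, with PPE 5 at 1.33 above sham 3 at 0.94. ND6, which lies on the other strand of mitochondrial DNA, changed by -1.21 (SE 0.39, adjusted p 0.0308), with PPE 5 at 0.80, above every sham array.

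Of 12 further subunits, carriers and related genes outside the symbol pattern, 7 were lower and 1 was higher. Ndufab1, the acyl carrier protein of complex I, was lower by -1.83 (SE 0.16, adjusted p 7.47e-06) and Cycs, cytochrome c itself, by -1.68 (SE 0.13, adjusted p 3.31e-06). Etfdh, Etfb and Etfa, which bring electrons from fatty acid oxidation to quinone, were lower by -2.23, -1.87 and -1.81. The 1 gene of this list that was higher was Atpif1, the inhibitor of ATP synthase that stops it from running backwards. Atpif1 read -0.37, -0.18, -0.19, -0.18 and 0.07 in sham and 0.24, 0.27, 0.36, 0.18 and 0.47 in PPE, a change of 0.47 (SE 0.11, adjusted p 0.00485).

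Assembly factors join the subunits and are not part of the finished complex. Of 28 tested over the 5 complexes, 7 were lower and 0 higher, with a median of -0.31. Those lower were Ecsit (-1.22), Ndufaf1 (-0.72) and Ndufaf3 (-0.60) of complex I, Uqcc (-0.999) of complex III, Lrpprc (-0.73) and Cox11 (-0.54) of complex IV, and Atpaf2 (-1.04) of complex V. For complex II, 0 of 2 were called, and Sdhaf2 read 0.18 (SE 0.09, adjusted p 0.166). Of 17 genes of mitochondrial membranes and import, 5 were lower, namely Mfn2 (-1.13), Hspa9 (-1.10), Hspd1 (-1.03), Immt (-0.83) and Vdac1 (-0.76), and the median was -0.26. The difference between these lists and the subunits was not tested.

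**Figure D5:**
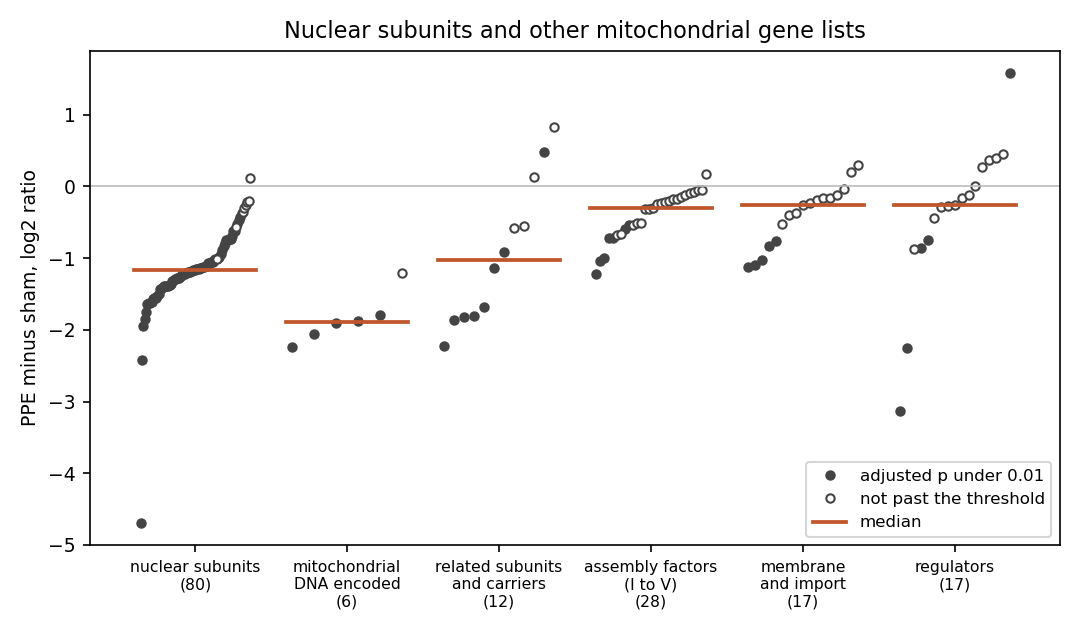
Change of single genes, PPE minus sham on the log2 scale, for the 80 nuclear subunits and for 5 other lists, with the number tested below each; filled points passed an adjusted p of 0.01 and lines mark medians. The medians are -1.16 for nuclear subunits, -1.90 for those of mitochondrial DNA and -1.03 for related subunits and carriers, and those of assembly factors, membrane genes and regulators lie between -0.31 and -0.26.

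Of the known regulators of these genes, 4 of 17 tested were lower and 1 was higher, beside 9.96% and 13.9% of all names. Ppara, a receptor that drives fatty acid oxidation, changed by -3.13 (SE 0.39, adjusted p 8.43e-05). Ppargc1a, the coactivator PGC-1 alpha that drives mitochondrial biogenesis, read 1.55, 2.04, 1.25, 1.43 and 0.28 in sham and -1.61, -0.78, -1.02, -0.71 and -0.58 in PPE, a change of -2.25 (SE 0.30, adjusted p 0.000138). Ppargc1b changed by -0.86 and Tfb2m, which starts transcription of mitochondrial DNA, by -0.74. Of the factors whose letters were searched in promoters, 4 were in the list and did not pass the threshold: Nrf1 read 0.27 (SE 0.11, adjusted p 0.0745), Gabpa -0.17 (SE 0.10, adjusted p 0.245), Esrra -0.44 (SE 0.15, adjusted p 0.0453) and Yy1 0.46 (SE 0.14, adjusted p 0.0209). Tfam, which packs mitochondrial DNA, read 0.01 (SE 0.21, adjusted p 0.976). Hif1a, the hypoxia-inducible factor, was the 1 regulator that was higher, by 1.58 (SE 0.27, adjusted p 0.000822).

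Cell type markers gave the setting of these changes, with counts set beside 9.96% of all names lower and 13.9% higher. The mean log2 ratio over 9 smooth muscle genes ran from 3.53 to 4.73 in sham and from 1.81 to 3.06 in PPE, with Tagln (-2.95), Acta2 (-2.48) and Synpo2 (-2.98) among the 7 that were lower. Over 8 macrophage genes it ran from 0.59 to 1.15 in sham and from 2.70 to 3.72 in PPE, with Fcgr1 (3.89) and Emr1 (3.42) among the 7 that were higher. Over 9 brown fat genes it ran from 3.15 to 4.49 in sham and from 0.28 to 1.40 in PPE. All 9 were lower: Fabp3 (-4.91), Slc27a2 (-3.95), Otop1 (-3.52), Cpt1b (-3.16), Ucp1 (-2.94), Cidea (-2.40), Ppargc1a (-2.25), Elovl3 (-2.12) and Dio2 (-1.75). Of these, Ucp1 is the uncoupling protein that defines brown fat. Ppargc1a is in this list and in that of the regulators. Genes of fat cells in general were lower in 2 of 8 (Lipe and Pparg), and Adipoq read -0.45 (adjusted p 0.367).

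Markers of heart muscle were lower in 1 of 6 (Tnnt2, -1.09) and higher in 1 (Tnni3, 0.97), and Myl7 was not tested. Markers of endothelium were called in 0 of 6, and those of fibroblasts were higher in 2 of 5 (Col1a1, 2.04, and Pdgfra, 0.64). The brown fat genes and the isoforms Cox7a1 and Cox8b, which brown fat and striated muscle use, were thus lower on the same arrays. The part of any of these cell types in the decrease of the subunits was not tested.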

How the data were processed

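Infrarenal aortic RNA of 5 sham and 5 PPE mice was hybridised by the authors against a common reference on 2-colour Agilent arrays and read with Feature Extraction 10.7.3.1. Dyes were not swapped. Per the study's methods, a few poorly hybridised arrays were left out of analysis. Clustering and principal components were then used to settle the treatment groups and drop outliers. Which arrays were left out, and whether this preceded deposit, is not stated. Spreads, overlaps and p-values here are over the deposited arrays. Spot signals and backgrounds, as deposited, are linear intensity values. LogRatio, as deposited, is on a log10 scale (red over green) and was converted to log2. The series matrix of the authors is on a log2 scale. It equalled log2 of the processed red over green signal on 100% of spots within 1e-04, so its scale and direction are settled; medians per array ran from -0.16 to 0.12.

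In R 4.3.3 with limma 3.58.1, mean signal and median background were corrected by normexp (offset 50), normalized by loess within arrays with control spots at weight 0, and cleared of 176 to 331 outlier spots per array. The offset draws ratios of dim probes towards 0. Spots of a probe were averaged, and each gene was read by the brightest of its tested probes. Of 24 members with several tested probes, 1 (Ndufa3) had probes of opposite sign. Groups were compared by limma, two-sided and unpaired, with Benjamini-Hochberg adjustment over 22520 names and a threshold of 0.01, after the study's false discovery rate. Isoform pairs were compared by exact permutation over 252 relabellings. SAM, the test in the study's methods, was rewritten here and used 100 relabellings.

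Named members were, in each complex, the 3 largest decreases and the smallest change, all members not called, the isoform pairs and the c subunit genes; from each list, up to 4 genes with the largest changes. Further genes were named after their values were seen: the iron-sulfur subunits of complex I and the core proteins of complex III, the other subunits given by value, the remaining called genes of the lists, and Nrf1, Gabpa, Esrra, Yy1, Tfam, Adipoq and Sdhaf2. Members and lists were chosen with earlier results of these data known. Probe positions are those of the files (mm9), with no annotation of exons on that build used here. Promoters are from RefSeq (GRCm38.p6). The values of 1 member are not reported here. Scripts were tested on simulated data. Alternatives were another offset, median centring, Aquantile, the deposited ratios, red alone, other filters, blocks, SAM and leaving out each array. Labels give separate mice, but some arrays shared a slide, so p-values mix the spread between mice with that between slides. The consensus correlation of arrays within a slide was 0.43. The fit reported and the exact permutations took no account of it. Of the 80 subunits, 69 were lower when slide entered the fit as a fixed effect and 72 when it entered as a random effect. The p-values of the isoform pairs were not adjusted for slide.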

Additional observations from a re-analysis of the deposited data

Results flagged for a closer look

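Among 82 groups of 5 arrays that were checked for an array standing far from the others (31 named subunits, 5 complex medians and 5 isoform pairs in sham and in PPE), 2 had one, where chance alone flags about 1 in 20. In Atp5a1, PPE 5 read 0.0423, above the next PPE array at -0.42 and below every sham array. In Sdha, sham 5 read 0.94, below the next sham array at 1.75 and above every PPE array.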

How the results depend on the processing

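Over 24 alternatives to the fit reported, the number of subunits lower stayed between 66 and 73 of 79 to 82 tested in all but median centring, and 0 were higher in any. Median centring gave 1 subunit lower in all, 0 in complexes I, II, III and V and 1 in IV, and medians of -0.36 (I), -0.46 (II), -0.48 (III), -0.27 (IV) and 0.12 (V) beside 0.41 for all names. It turned the sign of 12 called subunits, Atp5e (0.39), Atp5j (0.37), Atp5f1 (0.28), Ndufa2 (0.27), Atp5g3 (0.24), Atp5h (0.18), Ndufa7 (0.14), Ndufb7 (0.14), Atp5l (0.0715), Ndufc2 (0.06997), Uqcrh (0.0577) and Ndufa8 (0.000454). These 12 stayed below the median of all names. It also turned 6 subunits not called under loess, of which Ndufs4 (0.17) and Cox4i2 (0.17) lay below that median and Atp5c1 (0.58), Atp5g1 (0.63), Atp5g2 (0.67) and Ndufa3 (0.47) above it. The change of Cox8b lost its call there (-1.31) and in both deposited ratios (-1.35). Over all names it called 8 lower and 408 higher, so 98.1% of calls were higher, against 58.2% under loess, 50.6% in the deposited LogRatio and 49.4% in red alone. The cause was not tested. Red alone gave 66 subunits lower and a complex IV median of -1.01.

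The difference of Cox8b and Cox8a lost its call with offset 16 (-0.70, adjusted 0.188), median centring (-1.09, adjusted 0.0661) and the deposited LogRatio and series matrix (-0.00286 in each), and that of Cox4i2 and Cox4i1 with median centring (0.39), both deposited ratios (0.83) and red alone (0.66). Leaving out 1 array at a time gave 67 to 71 subunits lower, 32 to 34 in complex I and 9 to 12 in V. The pair differences then ran from -1.49 to -1.03 for Cox8b and Cox8a, which lost its call without sham 1, PPE 1, PPE 3, PPE 4 or PPE 5 (adjusted 0.0595 each), and from 0.80 to 1.13 for Cox4i2 and Cox4i1. For Cox7a1 and Cox7a2 they ran from -3.81 to -3.46, for Cox6b2 and Cox6b1 from 1.17 to 1.47, and for Cox6a2 and Cox6a1 from 0.20 to 1.19.

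With replicate number as a replicate block, 69 subunits were lower. The labels number the mice and state no pairing. Deviations of same-numbered arrays correlated at 0.29, -0.30, 0.16, -0.14 and 0.52 over genes. Array quality and slide can also move these values, so they cannot settle whether mice were handled as pairs. Aquantile leaves ratios within an array as they are, so it gave the same values. No depth is known for arrays. Signal over background limited Atp5s, Cox7b2 and Cox8c.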
